A study of Mus musculus with 8 samples.

Results

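Transcripts of 10 genes of the Hippo pathway, from the coactivators YAP and TAZ to the targets they raise with TEAD factors, were compared on Affymetrix mouse arrays between G1 and G0 cells, 2 sorted populations of the established mouse fibroblast line NIH3T3. The genes were Yap1, Wwtr1, Tead1, Lats1, Lats2, Ctgf (now named Ccn2), Cyr61 (now Ccn1), Ankrd1, Amotl2 and Axud1 (now Csrnp1). Every probe set whose single annotated symbol was one of these genes was taken, which gave 25 of the 45037 probe sets tested, for 10 of 18193 genes. They were spread unevenly, with 6 for Lats2, 4 for Cyr61, 3 for Wwtr1, 2 each for Yap1, Tead1, Lats1, Ankrd1 and Axud1, and 1 each for Ctgf and Amotl2.

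The Hippo pathway restrains cell growth through a kinase cascade. Its kinases Lats1 and Lats2 phosphorylate the coactivators YAP (gene Yap1) and TAZ (gene Wwtr1) and keep them in the cytoplasm. Unphosphorylated YAP and TAZ enter the nucleus and bind TEAD transcription factors, which raise the transcripts of Ctgf, Cyr61, Ankrd1, Amotl2 and other targets. In fibroblasts, serum switches YAP on, and confluence switches it off. Several of these targets also answer to serum response factor.

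All cells carried 2 transduced reporters, an mVenus fusion of the p27 mutant p27K- and an mCherry fusion of the Cdt1 fragment hCdt1(30/120). They were starved of serum and then kept in medium with 10% serum for 5 h before sorting. Cells with mCherry but no mVenus formed the G1 group (4 arrays), and cells with both colours formed the G0 group (4 arrays). Both groups had met serum, and the comparison sets cells without the p27 reporter against cells that held it. The labels do not name separate cultures, so the p-values reflect the spread between arrays alone, which may be technical.

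Each value is a log2 signal set against that probe set's own median over the 8 arrays, with the log base taken as 2. Absolute levels are lost by this, so no gene's level can be set against another's, and the presence of fibroblast markers could not be checked. None of the 10 fibroblast markers passed the test between groups (limma), and the median of that list per array ran from −0.22 to 0.08 in G1 and from −0.04 to 0.29 in G0. For markers of other cells these medians also overlapped, and 0 of those genes passed. The 6 epithelial genes ran from −0.06 to 0.34 in G1 and from −0.67 to 0.66 in G0, and the 6 endothelial genes from −0.12 to 0.43 in G1 and from −0.76 to 0.28 in G0. The 5 leukocyte genes ran from −0.28 to −0.02 in G1 and from −0.14 to 0.40 in G0, and the 5 muscle and fat genes from −0.29 to 0.26 in G1 and from −0.14 to 0.31 in G0. The poly-A spike-in controls, added to RNA before labelling, were missing on G1 replicate 4 and G0 replicate 3 (means of −6.39 and −6.66 over 24 probe sets, against −0.17 to 0.60 on the other 6 arrays). The labels' protocols instead place replicate 4 of each group in a second labelling batch, with another kit revision and RNA input. Whether the titles of G0 replicates 3 and 4 were exchanged was not tested, and replicate numbers, the labelled batch and values within it rest on the titles as given. Results are given with that labelled batch as covariate and, where it matters, with the 2 arrays lacking spike-ins as the batch (the spike-in batch). Both leave the differences the same and change their errors.

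The RefSeq promoters of 3 YAP target genes are shown, because their transcripts are a common readout of YAP and TEAD activity. Each line gives the 250 bases before the annotated start, 5′ to 3′ on the gene's strand, in assembly GRCm38.p6. Capitals mark GGAATG, the core letters of the TEAD motif, or CATTCC, the same letters on the other strand. Cyr61 is at chr3:145649986-145650235 on the minus strand, Ankrd1 at chr19:36119845-36120094 on the minus strand and Amotl2 at chr9:102717554-102717803 on the plus strand.
Cyr61: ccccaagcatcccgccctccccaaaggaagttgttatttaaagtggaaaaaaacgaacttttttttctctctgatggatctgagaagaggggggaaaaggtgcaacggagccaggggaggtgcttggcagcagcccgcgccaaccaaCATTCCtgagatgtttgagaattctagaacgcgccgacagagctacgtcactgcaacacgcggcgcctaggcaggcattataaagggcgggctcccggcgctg
Ankrd1: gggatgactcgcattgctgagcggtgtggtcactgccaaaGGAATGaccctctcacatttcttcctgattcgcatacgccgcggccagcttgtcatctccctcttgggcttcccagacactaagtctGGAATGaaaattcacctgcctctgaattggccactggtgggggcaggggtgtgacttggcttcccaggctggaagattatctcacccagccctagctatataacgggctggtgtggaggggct
Amotl2: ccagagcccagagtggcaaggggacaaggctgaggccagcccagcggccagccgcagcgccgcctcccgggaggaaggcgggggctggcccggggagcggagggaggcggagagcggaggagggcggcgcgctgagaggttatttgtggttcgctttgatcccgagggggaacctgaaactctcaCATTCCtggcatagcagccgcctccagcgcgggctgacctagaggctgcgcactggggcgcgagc

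The motif began 103 bases before the start in Cyr61, 210 and 123 bases before it in Ankrd1, and 65 bases before it in Amotl2. The RefSeq promoter table held 13 promoters of 8 of the 10 genes, and 7 of these promoters, from 6 genes, held the motif in the 250 bases. Ctgf and Tead1 had no promoter in it. Of all 32851 promoters in the table, 12.6% held the motif, counting both strands, and 14.4% of its 27025 genes held it in at least 1 promoter. Yap1 and Wwtr1 were among the 6 genes, and Axud1 held the motif in 1 of 4 promoters. The letters were not found in these windows of Lats1 or Lats2. A match is a description of the sequence and does not show binding.

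No difference between G1 and G0 cells passed the test in any of the 25 probe sets. In limma with the labelled batch, 0 passed an adjusted p of 0.05 (0.400% of all 45037 probe sets did) and 0 had an unadjusted p under 0.05 (7.30% of all). The smallest p was 0.124 (limma, unadjusted; adjusted p = 0.80), for a Lats2 probe set. Under the spike-in batch the smallest was 0.0824 (limma, unadjusted; adjusted p = 0.52), again for Lats2. There too 0 of 25 passed (0.788% of all), and 0 had an unadjusted p under 0.05 (11.3% of all). The 4 G1 values overlapped the 4 G0 values in all 25 probe sets, where 6.06% of all probe sets were separated. The median difference, G1 minus G0, was −0.11 over the 25 and −0.06 over all probe sets, and the median absolute difference was 0.17 over the 25 and 0.34 over all. In bulk RNA, fewer cells with a transcript and less of it per cell cannot be told apart.

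How large a change the arrays could have missed varied from gene to gene. The 95% confidence interval lay wholly within 1 log2 unit either side of 0, a 2-fold change, in 9 of the 25 probe sets with the labelled batch and in 15 with the spike-in batch. The 9 were both probe sets of Yap1, all 3 of Wwtr1, that of Amotl2, and 1 each of Lats1, Lats2 and Axud1. For Ctgf, Tead1, Ankrd1 and all 4 probe sets of Cyr61 the interval under the labelled batch still held a 2-fold change in at least 1 direction.

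**Figure D1:**
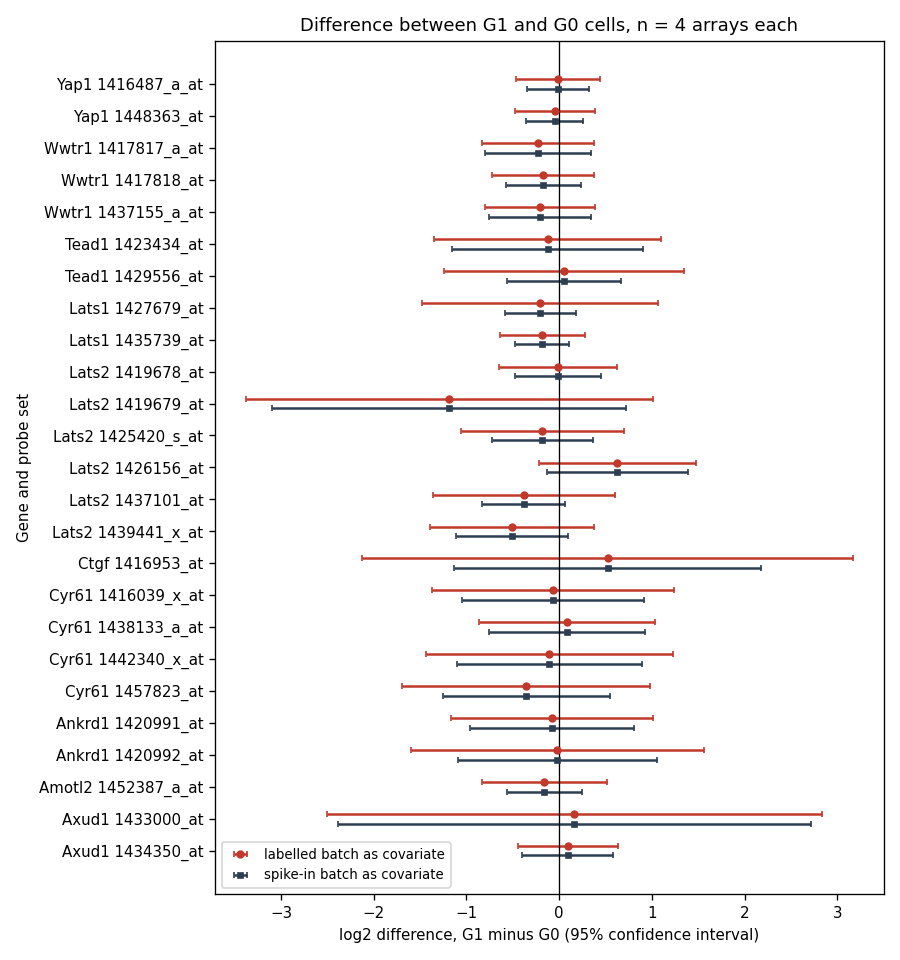
Difference between G1 and G0 cells in log2 units (x axis) for each probe set (y axis), with 95% confidence intervals from limma using the labelled batch (circles) or the spike-in batch (squares) as covariate, n = 4 arrays per group. All 50 intervals include 0, those of Yap1 are narrow, and those of Ctgf, Axud1 1433000_at and Lats2 1419679_at are wide.

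Yap1, the coactivator itself, was nearly constant over the 8 arrays. Its probe set 1448363_at read −0.06, −0.12, −0.01 and 0.01 in G1 replicates 1 to 4, against 0.08, −0.10, 0.01 and 0.02 in G0 replicates 1 to 4. The groups overlapped, and their means differed by −0.05 (95% confidence interval −0.48 to 0.38, limma adjusted p = 0.99). The spread within groups was 0.07 log2 units (pooled SD), and 0.162% of all probe sets varied less. The second probe set, 1416487_a_at, differed by −0.01 (−0.47 to 0.44) and had a within-group SD of 0.12.

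Wwtr1, which encodes TAZ, the partner coactivator of YAP, varied more than Yap1. Probe set 1417818_at read −0.08, 0.33, −0.01 and −0.38 in G1, against 0.01, 0.47, −0.11 and 0.18 in G0. Replicate 2 was the highest in each group, and the groups overlapped. The difference was −0.17 (−0.72 to 0.38, limma adjusted p = 0.95), and those of the other probe sets were −0.23 and −0.21. All 3 differences were negative, and each was smaller than the pooled SD within groups (0.27 to 0.32).

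Tead1, a DNA-binding partner of YAP and TAZ, varied widely between replicates, and its difference between groups did not pass. Probe set 1429556_at read −0.19, 0.38, 0.19 and −1.15 in G1, against −0.22, 0.49, −1.51 and 0.26 in G0. The lowest values lay on G1 replicate 4 and G0 replicate 3, the arrays without spike-ins. The group means were −0.19 ± 0.68 in G1 and −0.24 ± 0.89 in G0 (SD, n = 4 each), with a difference of 0.05 (−1.24 to 1.34, limma adjusted p = 0.996). Under the spike-in batch the interval was −0.57 to 0.67. The other probe set, 1423434_at, differed by −0.13 (−1.35 to 1.10).

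Lats1 and Lats2 are the kinases that inactivate YAP, and Lats2 is itself a YAP target that feeds back on the pathway. Lats1 probe set 1435739_at read −0.11, −0.12, −0.21 and 0.07 in G1, against 0.04, 0.00, 0.32 and 0.00 in G0. Here G0 replicate 3 was the highest array and G1 replicate 4 the second highest. The difference was −0.18 (−0.64 to 0.27, limma adjusted p = 0.92). Lats1 probe set 1427679_at stood high on the same 2 arrays, at 1.35 on G1 replicate 4 and 1.68 on G0 replicate 3, and between −0.39 and 0.08 on the other 6. Its difference was −0.20, with an interval of −1.47 to 1.07 under the labelled batch and −0.59 to 0.18 under the spike-in batch.

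The 6 probe sets of Lats2 disagreed. The probe sets 1425420_s_at, 1437101_at and 1439441_x_at read their lowest values of each group on the arrays without spike-ins and differed by −0.18, −0.38 and −0.51. Probe set 1437101_at read −0.16, −0.11, 0.24 and −1.23 in G1, against 0.40, 0.11, −0.73 and 0.49 in G0 (difference −0.38, −1.36 to 0.60, limma adjusted p = 0.93). Under the spike-in batch this probe set had the smallest p of the 25, with an interval of −0.83 to 0.06. Probe set 1426156_at had a positive difference of 0.63 (−0.22 to 1.48), 1419678_at differed by −0.02, and 1419679_at differed by −1.19 with an interval of −3.38 to 1.01. Values of 1419679_at ran from −2.46 to 0.36 in G1 and from −1.25 to 1.10 in G0. The mean of all 6 probe sets differed by −0.27 (−0.82 to 0.27, limma adjusted p = 0.82).

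**Figure D2:**
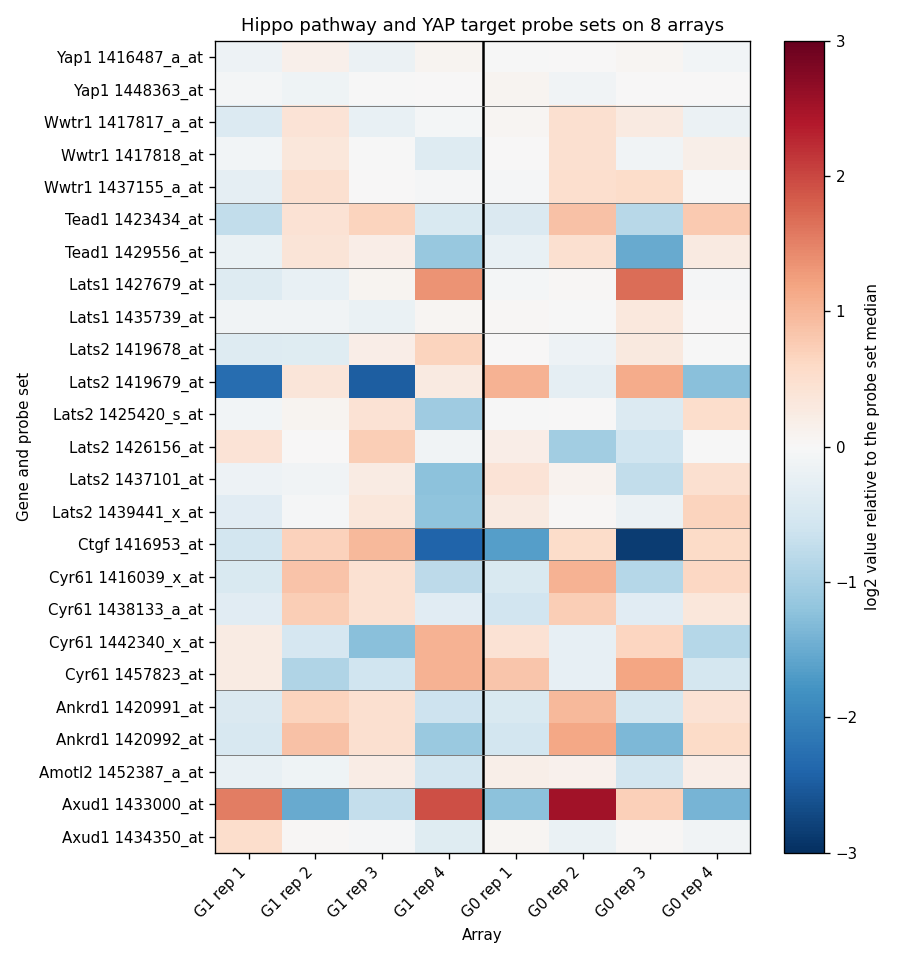
Log2 value relative to the probe set's median (colour) for each of the 25 probe sets (rows) on each array (columns), G1 left of the line and G0 right of it. Ctgf, Ankrd1, Tead1 and 2 probe sets of Cyr61 are low on G1 replicate 4 and G0 replicate 3 and high on replicate 2 of both groups, while Yap1 is near 0 on all 8 arrays.

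The secreted matrix protein genes Ctgf and Cyr61 and the cardiac ankyrin repeat gene Ankrd1 are the classic targets of YAP and TEAD. All 3 varied widely from array to array within both groups, and no difference between G1 and G0 passed. Ctgf read −0.55, 0.69, 0.97 and −2.40 in G1, against −1.65, 0.55, −2.86 and 0.58 in G0. The low arrays were replicates 1 and 4 in G1 and replicates 1 and 3 in G0, and the groups overlapped. The range within G1 was 3.37 log2 units and within G0 3.44, whereas the group means of −0.32 ± 1.53 in G1 and −0.84 ± 1.70 in G0 (SD, n = 4 each) differed by 0.52 (−2.13 to 3.17, limma adjusted p = 0.97). Ctgf varied more within groups than 90.0% of all probe sets.

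Ankrd1 was low and high on the same arrays. Probe set 1420992_at read −0.49, 0.88, 0.49 and −1.12 in G1, against −0.55, 1.17, −1.36 and 0.57 in G0. The group means were −0.06 ± 0.91 in G1 and −0.04 ± 1.13 in G0 (SD, n = 4 each), a difference of −0.02 (−1.60 to 1.56, limma adjusted p = 0.999). The second probe set, 1420991_at, read −0.42, 0.68, 0.49 and −0.63 in G1, against −0.45, 0.97, −0.53 and 0.42 in G0. The same 4 arrays lay above 0 on both probe sets, and the same 4 below. The difference of 1420991_at was −0.07 (−1.17 to 1.02).

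Cyr61 had 4 probe sets that fell into 2 opposite patterns. Probe set 1416039_x_at read −0.46, 0.86, 0.46 and −0.78 in G1, against −0.47, 1.05, −0.86 and 0.62 in G0, the pattern of Ctgf and Ankrd1. Probe set 1457823_at read 0.25, −0.91, −0.59 and 1.05 in G1, against 0.83, −0.25, 1.18 and −0.54 in G0, high where the first was low. The probe set 1438133_a_at followed the first pattern and 1442340_x_at the second. The 4 differences were −0.07 and 0.08 for the first pattern and −0.11 and −0.36 for the second, with limma adjusted p-values from 0.96 to 0.99. Which of the patterns reports the Cyr61 transcript was not tested.

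Amotl2, an angiomotin that binds YAP and is also its target, was flatter. It read −0.23, −0.12, 0.23 and −0.55 in G1, against 0.18, 0.12, −0.54 and 0.20 in G0. The arrays without spike-ins were again the lowest of each group. The difference was −0.16 (−0.84 to 0.52, limma adjusted p = 0.97).

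Axud1 encodes a nuclear protein first described as induced by the Wnt pathway scaffold axin. Probe set 1434350_at read 0.52, 0.04, −0.03 and −0.37 in G1, against 0.05, −0.21, 0.03 and −0.10 in G0 (difference 0.09, −0.44 to 0.63, limma adjusted p = 0.98). It followed neither array pattern of the other targets. Probe set 1433000_at scattered from −1.50 to 1.93 in G1 and from −1.38 to 2.51 in G0, with a difference of 0.17 (−2.51 to 2.84).

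**Figure D3:**
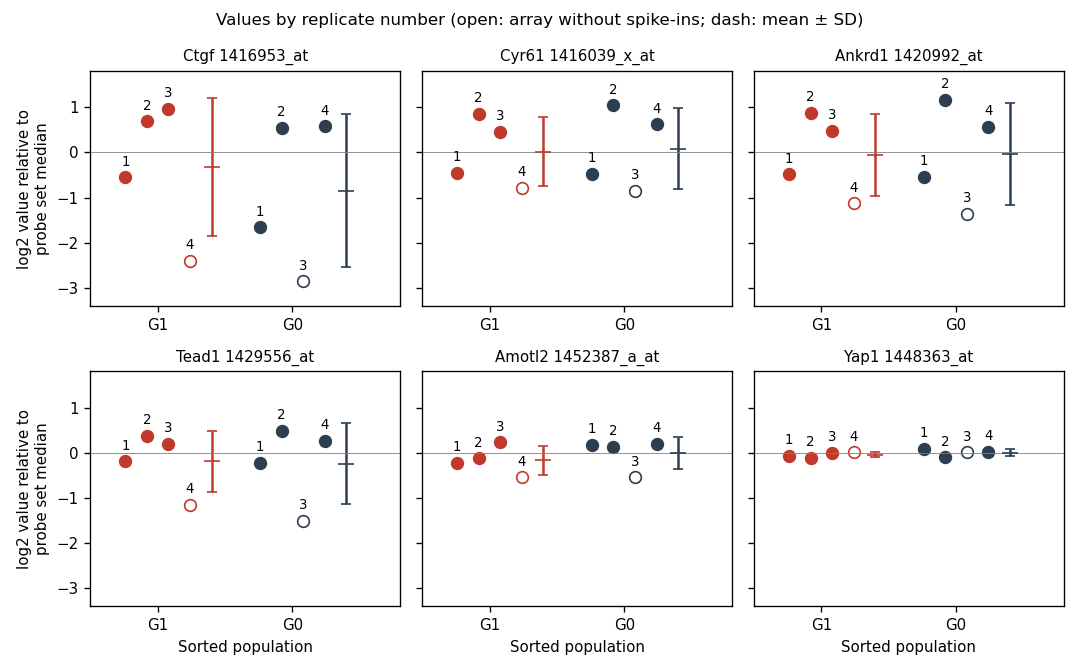
Log2 value relative to the probe set's median (y axis) in G1 and G0 cells, with a point per array labelled by replicate number, open for the arrays without spike-ins, and mean ± SD beside the points (n = 4 each). In the probe sets drawn for Ctgf (1416953_at), Cyr61 (1416039_x_at), Ankrd1 (1420992_at) and Tead1 (1429556_at) the open points are the lowest of both groups, which is not so for Cyr61 1457823_at or Tead1 1423434_at. For Ctgf they lie at −2.40 in G1 and −2.86 in G0, and Yap1 1448363_at stays within 0.12 of 0.

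In 23 of the 25 probe sets the absolute difference between groups was smaller than the pooled SD within groups. The exceptions were Lats1 1435739_at (0.18 against an SD of 0.14) and Lats2 1426156_at (0.63 against 0.49). Several genes differed between arrays with and without spike-ins. The mean of the arrays without spike-ins minus that of the arrays with them was −2.72 for Ctgf, −1.59 for Ankrd1 (1420992_at), −1.48 for Tead1 (1429556_at) and −1.16 for Cyr61 (1416039_x_at). It was weaker for Ankrd1 1420991_at (−0.86), Tead1 1423434_at (−0.91) and Cyr61 1438133_a_at (−0.57). Both Cyr61 probe sets of the opposite pattern had a positive value (1.32 for 1457823_at). So did Lats2 1419679_at, Axud1 1433000_at and Lats1 1427679_at, the last with the highest value (1.61). The median of this difference was −0.40 over the 25 probe sets and 0.18 over all probe sets. It was as low as that of Ctgf, or lower, in 0.373% of all probe sets. These arrays were the lowest of both groups in 10 of the 25 probe sets, against 12.5% of all, and the highest of both in 5, against 22.1% of all.

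The pattern went beyond those 2 arrays. In 9 of the 25 probe sets the top values of G1 were replicates 2 and 3 and those of G0 were replicates 2 and 4, an order found in 5.49% of all probe sets and noticed after the values were seen. These were the Ctgf probe set, both of Ankrd1, both of Tead1, 2 of Cyr61, and 1 each of Lats2 and Wwtr1. The inverse order held in 3 of the 25 (2 of Cyr61 and 1 of Lats1), against 9.97% of all. The part of labelling in this order was not tested.

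**Figure D4:**
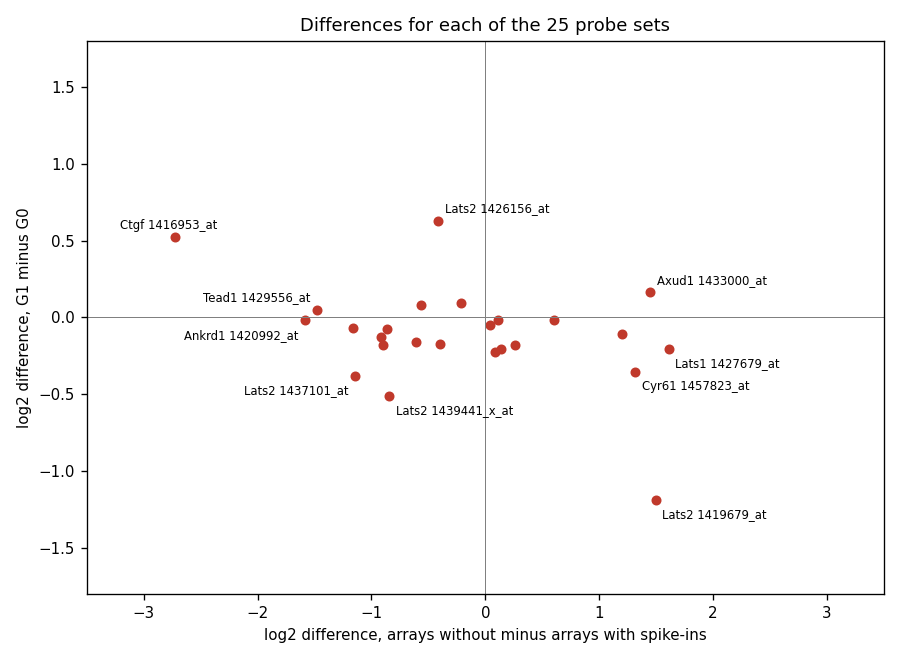
For each of the 25 probe sets, the log2 difference between arrays without and with spike-ins (x axis) against the log2 difference G1 minus G0 (y axis), as values with no test. The points spread widely along x, from −2.72 for Ctgf to 1.61 for Lats1 1427679_at, and mostly lie near 0 on y.

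The direction within a batch changed with how batches were drawn. Within the labelled batches, the difference of Ctgf was 1.69 over replicates 1 to 3 and −2.98 in replicate 4. Within the spike-in batches it was 0.54 over the 6 arrays with spike-ins (−1.24 to 2.33 in limma) and 0.46 on the 2 arrays without. Ankrd1 (1420992_at) differed by 0.54 and −1.69 within the labelled batches, and by −0.10 and 0.24 within the spike-in batches. Tead1 (1429556_at) gave 0.54 and −1.41, against −0.05 and 0.36. Of the 25 probe sets, 21 changed sign between the labelled batches and 9 between the spike-in batches. In the labelled batch of replicate 4 the G1 array lacked spike-ins and the G0 array had them, so that group and spike-ins cannot be told apart within it. On the 6 arrays with spike-ins, 0 of the 25 probe sets had an adjusted or an unadjusted p under 0.05 in limma. Of all 45037 probe sets, 0.0977% passed adjusted there, and 3677 had an unadjusted p under 0.05 (limma).

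The genes whose array profile lay closest to a target were found by the root mean square difference of their values over the 8 arrays, among 18192 other genes. For Ankrd1 (1420991_at) these were Lrrfip1, Rps6ka3, the ERK phosphatase Dusp6, Cyth3 and the Ras GTPase activator Rasa1, at 0.12 to 0.17 log2 units, where the median gene lay at 0.97. For Ctgf they were Fabp1, 4921508D12Rik, Tmcc3, the matrix glycoprotein gene Tnc and Nipal1, at 0.50 to 0.56 (median gene 1.75). The probe set that stands for Cyr61 by rule, 1457823_at, lay closest to Trim30a, Prrx2, Pomt1, Gbf1 and Mroh1, at 0.20 to 0.26. Its probe set of the opposite pattern, 1438133_a_at, taken after the values were seen, lay closest to Rps6ka3, Nars, the hyaluronan receptor gene Cd44, Ankrd1 and Zbtb44, at 0.09 to 0.18. Each profile rests on 8 arrays.

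Other genes of the pathway gave no call either. Of 45 other genes (22 kinases and scaffolds, 6 TEADs and TEAD cofactors, and 17 genes of a YAP target list), 0 passed in limma over all genes tested, where 0.522% of 18193 genes did. At an unadjusted p under 0.05 there were 4 (8.07% of all genes). With the spike-in batch 0 passed as well (1.01% of all genes), and 8 had an unadjusted p under 0.05 (12.4% of all). Of these, Wwc1, Vgll2, Fjx1 and Arhgef17 were higher in G1, and Frmd6, Stk38l, Foxf2 and Rbms3 were lower (limma adjusted p 0.24 to 0.43).

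Among the kinases and scaffolds, 9 of 22 had a positive difference and the median was −0.05, against −0.06 over all genes. The protocadherin Dchs1, a ligand of Fat4, averaged 0.54 ± 0.72 in G1 and −1.13 ± 1.39 in G0 (SD, n = 4 each), a difference of 1.67 (limma, unadjusted p = 0.042, adjusted p = 0.67; 0.065 and 0.48 under the spike-in batch). The scaffold Wwc1 differed by 1.06 (limma adjusted p = 0.77), and the largest negative differences were those of the Lats cofactor Mob1b (−0.62) and the kinase Stk38l (−0.58). Neither of these passed (limma adjusted p = 0.88 and 0.89).

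Among the other TEADs and their cofactors, 3 of 6 differences were positive, and the median was −0.09. Vgll2, a TEAD cofactor of muscle, averaged 0.30 ± 0.40 in G1 and −1.58 ± 1.27 in G0 (SD, n = 4 each; difference 1.88, limma unadjusted p = 0.049, adjusted p = 0.68). Tead2 differed by 0.39, Tead4 by −0.49 and Vgll3 by −0.35, with limma adjusted p-values of 0.86 to 0.96.

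Among the 17 other targets, 7 differences were positive, and the median was −0.04. Groups were separated in 2 of the 17, 1 in each direction, while 7.07% of all genes were separated. Arhgef17, a guanine nucleotide exchange factor gene, averaged 0.56 ± 0.36 in G1 and −0.40 ± 0.45 in G0 (SD, n = 4 each; difference 0.95, limma adjusted p = 0.47). Rbms3, an RNA-binding protein gene, averaged −0.20 ± 0.15 in G1 and 0.39 ± 0.29 in G0 (difference −0.59, limma adjusted p = 0.54). Both had an unadjusted p under 0.05 (0.013 and 0.018 in limma). The largest differences in each direction were those of Fjx1 (2.31), Igfbp3 (1.26), Myof (−1.22) and the tissue factor gene F3 (−0.67), with limma adjusted p-values from 0.74 to 0.94.

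**Figure D5:**
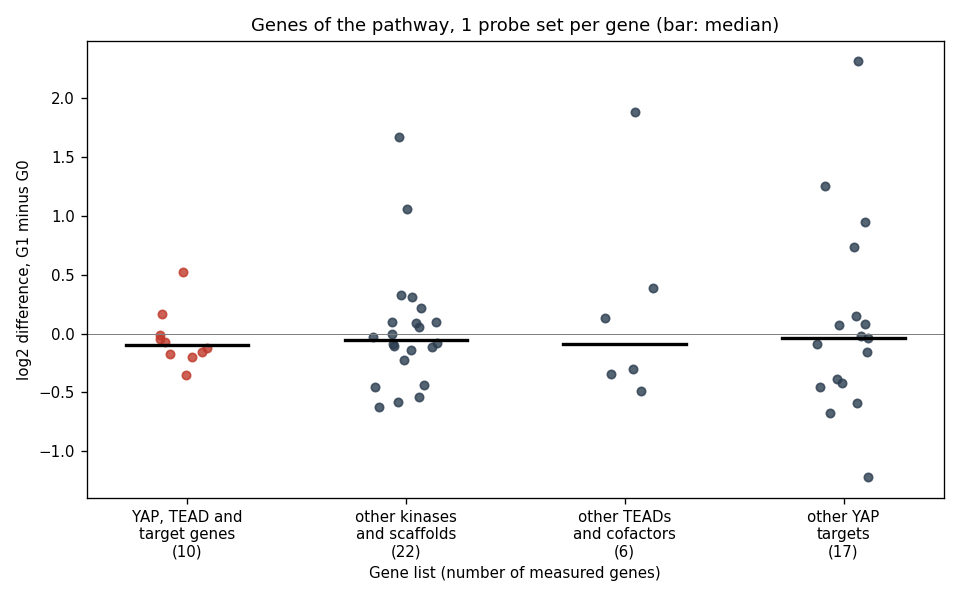
Log2 difference G1 minus G0 (y axis) for 1 probe set per gene in each gene list (x axis), with a point per gene and a bar at the median. The medians of all 4 lists lie between −0.10 and −0.04, and the 10 YAP, TEAD and target genes run from −0.36 for Cyr61 to 0.52 for Ctgf.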

How the data were processed

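The 8 arrays of NIH3T3 cells were grouped by title into G1 and G0 (4 each). The authors deposited log2 values. MAS5 is the tool the submitters' processing notes name. Every probe set had been centred on its median over the arrays (largest absolute median 5e-07), by a step not given in the sources used here. Base 2 was inferred from the range, −12.4 to 5.58. Centring hides dim and saturated probe sets. Of 45101 probe sets, 64 controls were left out. In the remaining 45037, GEO's platform annotation gave 1 symbol for 34945, several for 932 and none for 9160, and 34741 symbols were updated by Entrez identifier (GRCm38.p6 gene table).

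Differences are G1 minus G0 from limma 3.58.1 in R 4.3.3 (eBayes with trend, two-sided), with labelling revision as covariate (3 for replicate 4, 8 for the others) and Benjamini-Hochberg adjustment over all probe sets. The fit was tested on simulated data. All probe sets of the 10 genes are described. Each other gene was represented by 1 probe set, chosen by suffix (_at, _a_at, _s_at, _x_at) and then lowest number. Named from the other lists are the genes with an unadjusted p under 0.05 under either batch and, for the 3 pathway lists, the 2 with the largest difference in each direction. G1 and G0 values were also separated in another probe set of Stk38l, Amot, Col3a1, Krt8, Pdgfrb and Col1a1. These probe sets did not stand for their genes and are not described further. Nearest genes are the 5 with the smallest root mean square difference. The result of 1 further gene list is not reported here. The genes, lists and tests were chosen with earlier results of these data known. Alternatives were other batch covariates, array subsets, scalings, error models, a tie filter and the mean of a gene's probe sets. The number of arrays limits the precision, and array medians ran from −0.07 to 0.09. Same-numbered replicates were not paired.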

Additional observations from a re-analysis of the deposited data

Results flagged for a closer look

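Among the 50 sets of 4 arrays (25 probe sets in 2 groups), 3 held an array far from the other 3 of its group, where chance gives about 1 in 20 sets. All 3 were G0 replicate 3, an array without spike-ins. Lats1 probe set 1427679_at read 1.68 there, with the nearest of the other G0 arrays at 0.02. Lats1 probe set 1435739_at read 0.32, with the nearest at 0.04. Amotl2 read −0.54, with the nearest at 0.12.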

How the results depend on the processing

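No probe set of the 10 genes passed under any of the 19 alternatives, and none reached an unadjusted p under 0.05 (limma, lowest adjusted p 0.52). Under the replicate block, on the labelling revision 8 arrays alone and without most single arrays, 0 of all probe sets passed. A count of 0 passing was fixed in advance there and shows nothing about these genes. The unadjusted count was not so fixed. Of all probe sets, 3219 reached that p under the replicate block and 3575 on the labelling revision 8 arrays (limma). Changing or dropping the batch covariate, the replicate block, the eBayes variants and the tie filter left each difference as it was, so no sign could change there. Labelling revision 8 alone and leaving out either array of replicate 4 gave the same difference, counted each time. Of 475 alternative differences, these included, 65 changed sign, in 16 of the 25 probe sets. On the labelling revision 8 arrays alone the differences were 0.24 for Tead1 1423434_at, 0.28 and 0.0636 for Lats2 1425420_s_at and 1437101_at, 0.38 for Cyr61 1416039_x_at, 0.25 and 0.54 for Ankrd1 1420991_at and 1420992_at, 0.0387 for Amotl2 and −0.88 for Axud1 1433000_at. On the 6 arrays with spike-ins they were −0.0509 for Tead1 1429556_at and −0.19 for Axud1 1433000_at. With array medians centred they were 0.0111 for Yap1 1416487_a_at, 0.00974 for Lats2 1419678_at and 0.00694 for Ankrd1 1420992_at, and with quantile normalization 0.0183, 0.00511 and 0.0165. With array weights they were 0.00855 for Ankrd1 1420992_at and −0.0908 for Axud1 1433000_at.

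Leaving out 1 array moved Ctgf between −0.22 (without G0 replicate 3) and 1.69 (without G1 replicate 4). Leaving out 1 array of replicate 4 left the other alone in its labelled batch, where the covariate absorbed it. Such values, 1.69 for Ctgf among them, are the differences over replicates 1 to 3 and not the influence of 1 array. Ankrd1 moved between −0.32 and 0.25 (1420991_at) and between −0.51 and 0.54 (1420992_at), and Amotl2 between −0.36 and 0.0387. Cyr61 moved between −0.41 and 0.38 (1416039_x_at), −0.14 and 0.34 (1438133_a_at), and −0.77 and 0.28 (1442340_x_at). Tead1 moved between −0.44 and 0.24 (1423434_at) and between −0.42 and 0.54 (1429556_at), and Lats1 1427679_at between −0.73 and 0.29. Lats2 moved between −0.25 and 0.11 (1419678_at), −0.37 and 0.28 (1425420_s_at), and −0.69 and 0.0636 (1437101_at). Axud1 moved between −0.88 and 1.004 (1433000_at) and between −0.0507 and 0.22 (1434350_at), and Yap1 1416487_a_at between −0.0767 and 0.0357. The 9 other probe sets kept their sign under every alternative run.

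Of all 45037 probe sets, 180 passed under the labelled batch and 355 under the spike-in batch. On the 6 arrays with spike-ins 44 passed, and on the labelling revision 8 arrays alone 0 (limma, with 3575 at an unadjusted p under 0.05). The replicate block, by titled number, gave 0 (limma, with 3219), so none of the pathway's genes could pass under it. Deviations of same-numbered arrays from their group means correlated at 0.0692, 0.106, −0.139 and −0.136 across probe sets for replicates 1 to 4. Replicates 1 and 2 of G1 correlated best with their own number in G0, G1 replicate 3 with G0 replicate 4 (0.100), and G1 replicate 4 with G0 replicate 3 (0.309). Leaving out 1 array gave 0 to 122 (122 without G0 replicate 3, 46 without G0 replicate 1, 0 without any other), with 2750 to 3731 at that unadjusted p. Of the 45 other pathway genes, 0 passed under the same 19 alternatives and with the mean of a gene's probe sets, with 1 to 8 at that p. Where 0 of all probe sets passed, that count of 0 was fixed in advance and shows nothing about these genes. The cause of these changes was not tested. Signal over background is unknown for centred values.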

Other observations

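Of the 32 measured marker genes, 0 passed in limma (0.522% of all genes), and 4 had an unadjusted p under 0.05 (8.07% of all genes). The fibroblast collagen gene Col3a1 averaged −0.41 ± 0.26 in G1 and 0.31 ± 0.18 in G0 (SD, n = 4 each; difference −0.72, limma adjusted p = 0.43). The leukocyte genes Lyz2 and Cd14 differed by −0.55 and −0.65 (limma adjusted p = 0.615 each), and the endothelial gene Pecam1 by 1.16 (limma adjusted p = 0.64). The other measured leukocyte genes had positive differences (Ptprc 1.05, Cd3e 0.20 and Csf1r 0.05). Positive differences were found in 4 of the 6 endothelial and 3 of the 10 fibroblast genes. Under the spike-in batch 0 passed (1.01% of all genes), and 6 had an unadjusted p under 0.05 (12.4% of all genes). These were the same 4 and the fibroblast matrix genes Col1a1 and Dcn, which differed by −0.86 and −0.74 (limma adjusted p = 0.20 and 0.27).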
